A study of Equus caballus with 20 samples.

Results

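NLN, ANPEP, FOLH1 and SLC15A2 are genes that cut small peptides or carry them into cells, and all 4 are described here across the oviduct epithelium of pregnant and cyclic mares. They are 4 of the 26740 features in the table. They were selected on their lower normalized counts in pregnant than in cyclic mares, so those differences are given as a description, without a test. Every one of the 4 was found by its symbol and passed the filter on low values, which kept 14692 features above 1 CPM (reads scaled to the library total) in at least 5 libraries.

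RNA was sequenced from epithelial cells taken at the junction of ampulla and isthmus in Warmblood mares, 4 days after ovulation in every group. The 20 libraries form 4 groups of 5 replicates: PI and PC hold the oviducts of pregnant mares on the side of ovulation (ipsilateral) and on the other side (contralateral), and CI and CC those of cyclic mares in the same order. Cyclic mares serve as the non-pregnant comparison. The labels do not say whether libraries with 1 number come from 1 mare, and p-values measure the spread between these libraries.

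Peptides in the oviduct lumen are shortened by peptidases on the cell surface, and the resulting short peptides and amino acids can be taken up again by transporters of the epithelium. The oviduct is also where the early embryo is bathed and fed before it reaches the uterus. NLN encodes neurolysin, a zinc oligopeptidase that cleaves neurotensin and other short bioactive peptides. ANPEP encodes aminopeptidase N (CD13), a membrane enzyme that removes N-terminal residues from peptides and is also found on myeloid cells and fibroblasts. FOLH1 encodes glutamate carboxypeptidase II, a membrane enzyme that releases terminal glutamate from N-acetylaspartylglutamate and from polyglutamated folate. SLC15A2 encodes PEPT2, the high-affinity transporter that carries di- and tripeptides into the cell together with protons.

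The recovered reads per library numbered 2795168 to 10126484, with group medians of 4936111 in PI, 5781668 in PC, 6263152 in CI and 4763477 in CC. One feature without a symbol took over 10% of the reads in 3 libraries, PI1, PI4 and CI3. Epithelial and ciliary genes were abundant: EPCAM, an epithelial adhesion molecule, ranged from 1115 to 2413 normalized counts, and FOXJ1, the regulator of motile cilia, from 2774 to 6344. The secretory marker OVGP1 stood at 0 to 15.4 normalized counts, 13 reads at most. PAX8, another secretory marker, was abundant at 1410 to 2491. Stromal and leukocyte genes were present too, with COL1A1 at 75.9 to 1450 and PTPRC at 101 to 704 normalized counts. Values below are the deposited counts after TMM scaling, called normalized counts, and log2 differences are on the scale log2(value + 3.03), which understates the change of low genes. Because no transcript lengths of the authors' annotation were used, differences in level are read between groups. Where a gene is called abundant or low, this refers to its counts without correction for length.

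Neurolysin had the narrowest spread of the 4 genes. Libraries PI1 to PI5 held NLN at 75.0, 83.6, 90.0, 101 and 83.9 normalized counts, and CI1 to CI5 at 146, 117, 144, 139 and 152. Libraries PC1 to PC5 held it at 76.4, 82.0, 77.0, 104 and 112, and CC1 to CC5 at 174, 151, 152, 139 and 151. All 10 pregnant libraries lay below all 10 cyclic ones: the highest pregnant library was PC5 and the lowest cyclic library CI2. Group means, in ascending order, were 86.6 ± 9.49 in PI, 90.3 ± 16.5 in PC, 140 ± 13.6 in CI and 153 ± 12.8 in CC (SD, n = 5). Ipsilaterally the log2 difference between pregnant and cyclic mares was −0.67 ± 0.14 (SE), a level 1.59-fold lower, and contralaterally −0.76 ± 0.14, or 1.69-fold lower. Within each status the sides differed by less than the spread of their libraries. These values rest on 32 to 247 reads per library. The pooled SD within groups was 0.17 on the log2 scale, smaller than that of most features, whose median was 0.40.

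Aminopeptidase N followed the same order by status. ANPEP in PI1 to PI5 was at 455, 382, 291, 470 and 484 normalized counts, whereas CI1 to CI5 had 1024, 686, 828, 637 and 537. PC1 to PC5 had 473, 369, 350, 293 and 349, whereas CC1 to CC5 had 980, 781, 693, 670 and 571. Again no pregnant library reached a cyclic one, although PI5 (484) and CI5 (537) came close. From lowest to highest, means were 367 ± 65.7 in PC, 416 ± 80.3 in PI, 739 ± 154 in CC and 742 ± 189 in CI (SD, n = 5). Pregnant mares were lower by a log2 difference of −0.82 ± 0.19 (SE) on the ovulation side, 1.76-fold, and of −1.0 ± 0.19 on the other, 2.00-fold. With 194 to 1280 reads per library, ANPEP had the most reads behind its values.

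Glutamate carboxypeptidase II varied more from library to library. For FOLH1, PI1 to PI5 gave 28.1, 66.1, 60.3, 35.2 and 46.1 normalized counts and CI1 to CI5 gave 73.4, 148, 73.8, 128 and 92.2. PC1 to PC5 gave 37.7, 81.1, 59.3, 83.0 and 37.7, while CC1 to CC5 gave 88.3, 250.2, 162, 88.5 and 96.5. Neither side showed an overlap between pregnant and cyclic libraries, but PC2 and PC4 exceeded CI1 and CI3, so the 10 pregnant and 10 cyclic libraries overlapped across sides. The means were 47.2 ± 16.1 in PI, 59.8 ± 22.2 in PC, 103 ± 33.5 in CI and 137 ± 70.4 in CC (SD, n = 5). As log2 differences, pregnancy gave −1.09 ± 0.32 (SE) ipsilaterally, 2.12-fold lower, and −1.11 ± 0.32 contralaterally, 2.16-fold lower. PI1 had 12 FOLH1 reads, the fewest, and CC2 410, the most. On CPM without TMM, FOLH1 in PI3 exceeded CI3, and the ipsilateral groups overlapped.

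The peptide transporter was the one gene whose contralateral groups overlapped. SLC15A2 counts, normalized, were 58.6, 90.4, 87.4, 58.7 and 95.7 over PI1 to PI5 but 122, 153, 195, 159 and 138 over CI1 to CI5. They were 79.7, 128, 89.5, 87.1 and 94.2 over PC1 to PC5 but 257, 327, 269, 132 and 97.7 over CC1 to CC5. PC2 lay above CC5, while the ipsilateral groups were apart. Means ran from 78.2 ± 18.1 in PI and 95.7 ± 18.9 in PC to 153 ± 27.2 in CI and 216 ± 97.3 in CC (SD, n = 5), CC having the widest spread. The pregnant level was lower by −0.96 ± 0.27 (log2, SE) on the ovulation side, 1.94-fold, and by −1.03 ± 0.27 on the other, 2.05-fold. Leaving out PI1, PI4 and CI3 gave an ipsilateral difference of −0.63 ± 0.31 (95% interval −1.29 to 0.04).

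**Figure D1:**
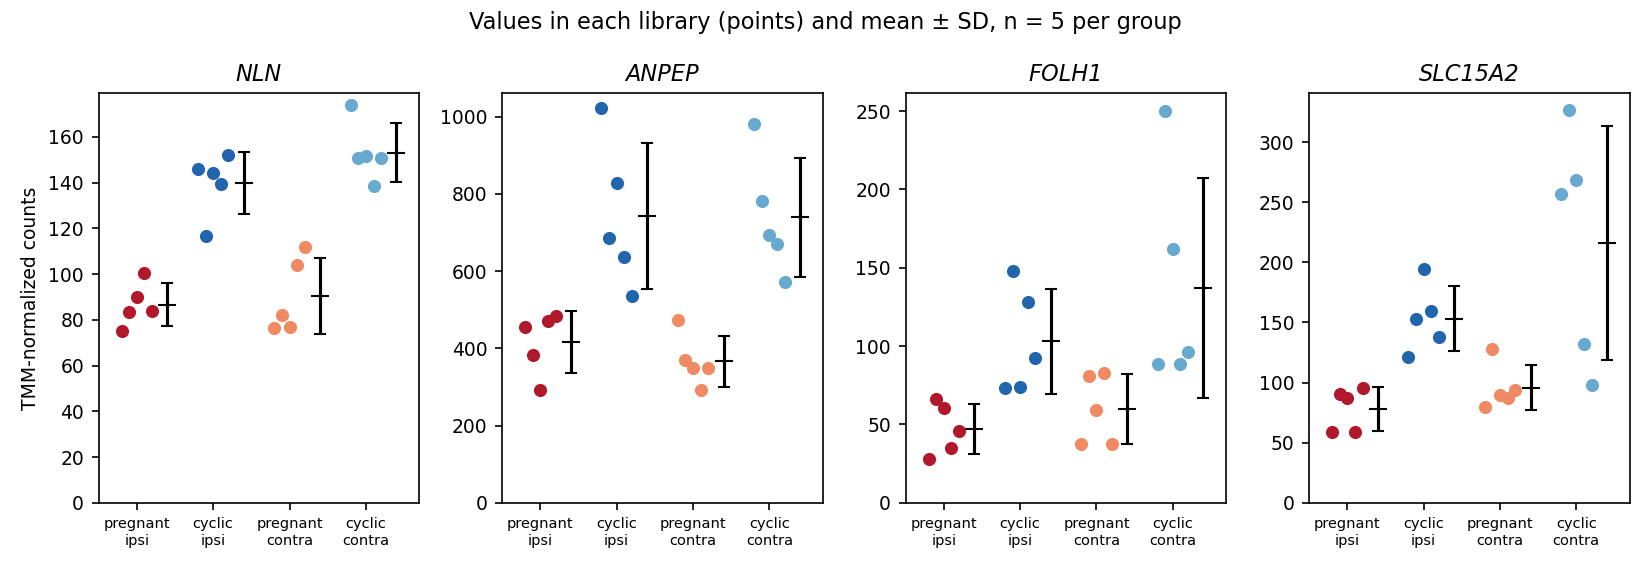
TMM-normalized counts (vertical axes, from 0) of the 4 genes in each of the 20 libraries by group, with points for libraries and the dash and bar for mean ± SD (n = 5). Pregnant libraries lie below cyclic ones on both sides for NLN, ANPEP and FOLH1, and for SLC15A2 on the ovulation side, where PI reaches 95.7 and CI starts at 122.

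Counted over the 4 genes, pregnant libraries lay wholly below cyclic ones for 4 of 4 ipsilaterally, for 3 of 4 contralaterally and, across all 20 libraries, for 2 of 4. Of all 14692 features, 0.402% were separated in this direction ipsilaterally, 0.272% contralaterally, 0.0340% on both sides and 0.0272% across all 20 libraries. Since the genes were chosen for this difference, nothing is read from those shares. The features separated across all 20 libraries were 4 in number: NLN, ANPEP, PDE3B (a cyclic nucleotide phosphodiesterase) and PUS7 (a pseudouridine synthase), the last of which differed by −0.33 and −0.43 on the log2 scale. The contralateral count was 4 without PC2 or without CC5, and the count across all libraries was 3 without PC2. Without PI1, PI4 and CI3 the counts were again 4, 3 and 2. The limma fit called 0 of 14692 features on either side at an adjusted p under 0.05, while 514 ipsilaterally and 669 contralaterally had an unadjusted p under 0.05, or 3.50% and 4.55%. On recovered reads, edgeR called 0 and 0 (494 and 838 unadjusted, 3.36% and 5.70%) and DESeq2 0 and 12 (0.0817%; 560 and 950 unadjusted, 3.81% and 6.47%). The libraries of the sides are different, but they may come from the same mares, so the sides are not independent support for each other.

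The comparison of sides, which did not enter the choice of genes, asked whether the oviduct next to the ovulating ovary differs from its partner. None of the 4 genes passed in either status by limma with Benjamini-Hochberg adjustment over 14692 features, and 0 features passed at all. In pregnant mares NLN differed between ipsilateral and contralateral oviduct by −0.05 on the log2 scale (95% interval −0.34 to 0.24), a ratio of 0.968 with an interval of 0.792 to 1.18. ANPEP differed by 0.18 (−0.21 to 0.57). FOLH1 differed by −0.31 (−0.97 to 0.35) and SLC15A2 by −0.29 (−0.85 to 0.26), with adjusted p = 0.999 by limma for each of the 4. In cyclic mares the differences were −0.13 for NLN (−0.42 to 0.16), −0.01 for ANPEP (−0.40 to 0.38), −0.33 for FOLH1 (−0.99 to 0.33) and −0.37 for SLC15A2 (−0.92 to 0.18), with adjusted p = 1.00 by limma. FOLH1 and SLC15A2 averaged lower on the ovulation side in both statuses, by less than the spread between libraries. At an unadjusted p under 0.05 limma gave 112 features (0.762%) in pregnant and 42 (0.286%) in cyclic mares, where edgeR gave 77 (0.524%) and 50 (0.340%) and DESeq2 83 (0.565%) and 55 (0.374%). Both count-based tools called 0 after adjustment. Same-numbered pregnant libraries deviated together, which the intervals above leave out. With the number as a fixed block the intervals in pregnant mares were −0.33 to 0.23 for NLN and −0.11 to 0.47 for ANPEP. They were −0.81 to 0.19 for FOLH1 and −0.76 to 0.17 for SLC15A2. Adjusted p by limma was then 0.925 for NLN and 0.822 for each of the others.

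Whether the pregnancy difference depends on side was tested by the interaction, the ipsilateral minus the contralateral pregnancy difference. It was 0.09 for NLN (95% interval −0.32 to 0.49), 0.18 for ANPEP (−0.37 to 0.73), 0.02 for FOLH1 (−0.92 to 0.96) and 0.08 for SLC15A2 (−0.71 to 0.86), with adjusted p = 1.00 by limma. No dependence on side was detectable for any of the 4. The interval of FOLH1 would, however, hold a difference almost as large as its pregnancy difference on either side. With the number as a fixed block the intervals were −0.31 to 0.48 for NLN and −0.23 to 0.59 for ANPEP. They were −0.69 to 0.73 for FOLH1 and −0.58 to 0.74 for SLC15A2. With log2 reads as a covariate the FOLH1 interaction was 0.64. Over all features limma called 0, with 47 (0.320%) at an unadjusted p under 0.05, edgeR called 0 (39, 0.265%) and DESeq2 0 (49, 0.334%).

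**Figure D2:**
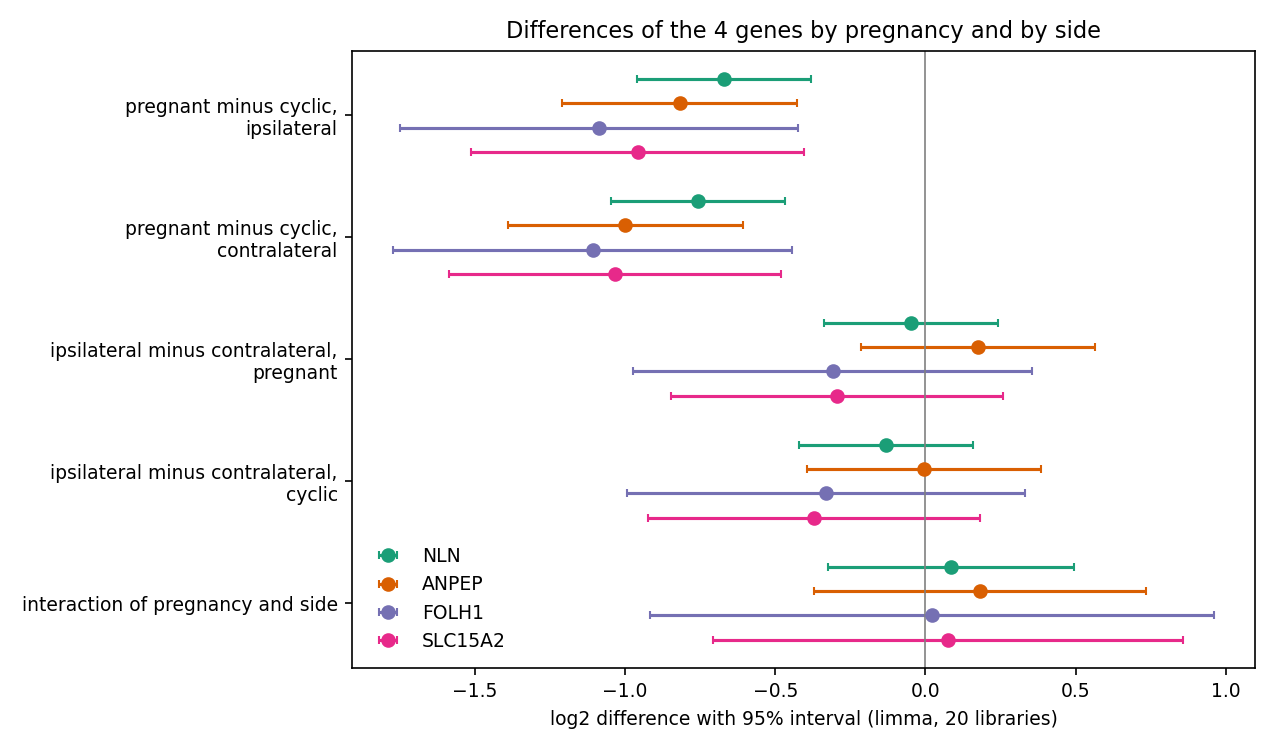
Log2 differences (horizontal axis) of the 4 genes in 5 comparisons, with 95% intervals from a limma fit to 20 libraries. Pregnancy differences lie between −0.67 and −1.11, as chosen, whereas each interval for side and for the interaction includes 0.

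Over all 20 libraries Pearson's r of the log2 values was 0.76 for NLN and ANPEP, 0.74 for NLN and SLC15A2, 0.66 for NLN and FOLH1, 0.68 for ANPEP and SLC15A2, 0.48 for ANPEP and FOLH1, and 0.84 for FOLH1 and SLC15A2. All of these contain the difference for which the genes were chosen. After subtraction of the 4 group means, FOLH1 and SLC15A2 still varied together (r = 0.58), in pregnant (0.69) as in cyclic libraries (0.55). NLN had r = −0.08 with ANPEP, which was −0.39 in pregnant and 0.32 in cyclic libraries, and r = −0.14 with FOLH1, which was 0.04 and −0.41. Its r with SLC15A2 was 0.08 (−0.06 and 0.22). ANPEP went against FOLH1 (−0.40) in pregnant (−0.65) and in cyclic libraries (−0.21), while its r with SLC15A2, 0.17, was −0.31 and 0.40. These are descriptions over 20 libraries, some of which may share a mare.

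Library depth moved with FOLH1. Within groups, its log2 value correlated with log2 total reads at r = 0.87 (0.84 without PI1 and CI2, the libraries farthest from the median depth; over 20 libraries without subtraction of group means r = 0.57, Spearman's rho = 0.42). Only 0.259% of the 14692 features had a within-group r as high. Its highest value in each of the 4 groups was in the deepest library of that group, PI2, PC4, CI2 and CC2, and its lowest of all in PI1, the shallowest library. The within-group r with depth was 0.04 for NLN (0.37 in pregnant and −0.36 in cyclic libraries), −0.27 for ANPEP (−0.65 and −0.01) and 0.42 for SLC15A2 (0.49 and 0.40). With log2 reads as a covariate the FOLH1 pregnancy difference was −0.74 ± 0.19 ipsilaterally and −1.38 ± 0.19 contralaterally (SE), and the NLN differences were −0.67 ± 0.14 and −0.76 ± 0.14, the same as without it to 2 decimals. The part of depth in the difference was not tested beyond these fits.

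Markers of other cells also averaged higher or lower in pregnancy, although no feature passed by limma. Of all features, 51.9% were lower in pregnant mares ipsilaterally and 48.2% contralaterally. Genes of 1 list can vary together, so the counts below are descriptions. In bulk samples, fewer cells of a type and less RNA per cell cannot be told apart. Of 19 stromal fibroblast markers 18 were kept, and 17 of these stood lower in pregnant mares on each side, with medians of −0.52 and −0.42 (log2). Their summed level ran from 2346 to 8880 normalized counts in PI, 4767 to 7718 in CI, 3425 to 7542 in PC and 3397 to 11406 in CC. TCF21, a fibroblast transcription factor, had at most 3 reads in every library. FOLH1 and SLC15A2 followed the stromal score, the mean log2 value of those markers, within groups (r = 0.71 and 0.72, or 0.55 and 0.54 without CC2 and CC3, the libraries farthest from the median score). Within-group r with this score was as high as that of FOLH1 in 1.27% of features, and as high as that of SLC15A2 in 1.08%. For NLN r was −0.08. For ANPEP it was −0.10, made up of −0.61 in pregnant and 0.25 in cyclic libraries. Other scores also moved with the genes within groups: the epithelial score, over 5 kept markers, had r = 0.67 with FOLH1 and 0.55 with SLC15A2, and the oviduct secretory score, over 8, had r = 0.66 with NLN. Smooth muscle markers had r = 0.50 with FOLH1. The B and plasma cell score, over 3 low genes, had r = −0.59 with NLN and −0.53 with SLC15A2, and the mesothelial and ovarian score, over 6, had r = −0.61 with NLN. With the stromal score as a covariate the differences of FOLH1 were −0.79 ± 0.25 and −0.90 ± 0.25, and those of SLC15A2 −0.71 ± 0.21 and −0.86 ± 0.21, on the ovulation and the other side. Those of NLN were −0.68 ± 0.15 and −0.76 ± 0.14 and those of ANPEP −0.84 ± 0.20 and −1.02 ± 0.19, as large as without it. The part of stromal cells in the FOLH1 and SLC15A2 differences was not tested beyond these fits. Depth and the stromal score were not fitted together, so their relations to FOLH1 were not told apart. PI1, the shallowest library, also had the lowest stromal score (6.40), while CC3 had the highest (8.82) without being the deepest.

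Multiciliated cell markers went the other way, all 14 kept genes being higher in pregnancy on each side (medians 0.22 and 0.29). Their summed level was 80828 to 105704 normalized counts in PI, 60020 to 84786 in CI, 79880 to 102966 in PC and 61931 to 92280 in CC. ANPEP had r = −0.51 with this score within groups (−0.42 without CI1 and CC4), but −0.79 in cyclic and 0.17 in pregnant libraries. SLC15A2 had r = −0.40, which became −0.84 without CI1 and CC4. Over all 20 libraries, 2.69% of features had a within-group r as low as that of ANPEP, and 5.93% as low as that of SLC15A2. With the score as a covariate the differences of ANPEP were −0.64 ± 0.19 and −0.73 ± 0.21. SLC15A2 was then at −0.75 ± 0.28 and −0.72 ± 0.31. NLN stayed at −0.65 ± 0.16 and −0.73 ± 0.17 and FOLH1 at −1.06 ± 0.36 and −1.06 ± 0.40. Monocyte, macrophage and dendritic cell markers, relevant to ANPEP as CD13 of myeloid cells, had medians of −0.03 and 0.11 over 12 kept genes. Their summed level was 521 to 1449 in PI, 646 to 1434 in CI, 669 to 2082 in PC and 700 to 1394 in CC. Within groups their score had r = −0.19 with ANPEP, 0.25 with NLN, 0.49 with FOLH1 and 0.02 with SLC15A2. T and NK cell markers had the largest median shift among the marker lists with at least 3 kept genes. They stood higher in pregnant mares in 12 of 13 kept genes ipsilaterally and in 13 of 13 contralaterally (medians 0.80 and 1.06), with a summed level of 151 to 509 in PI, 111 to 484 in CI, 225 to 939 in PC and 91.8 to 271 in CC. KLRD1 had at most 3 reads in every library. Within groups this score had r = 0.10 with NLN, 0.03 with ANPEP, 0.19 with FOLH1 and −0.25 with SLC15A2, and its part in the differences was not tested. The pan-leukocyte markers stood higher in pregnant mares in 4 of 4 on each side, and with their score as a covariate the 4 genes differed by −0.69 to −1.19 ipsilaterally and −0.78 to −1.24 contralaterally.

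**Figure D3:**
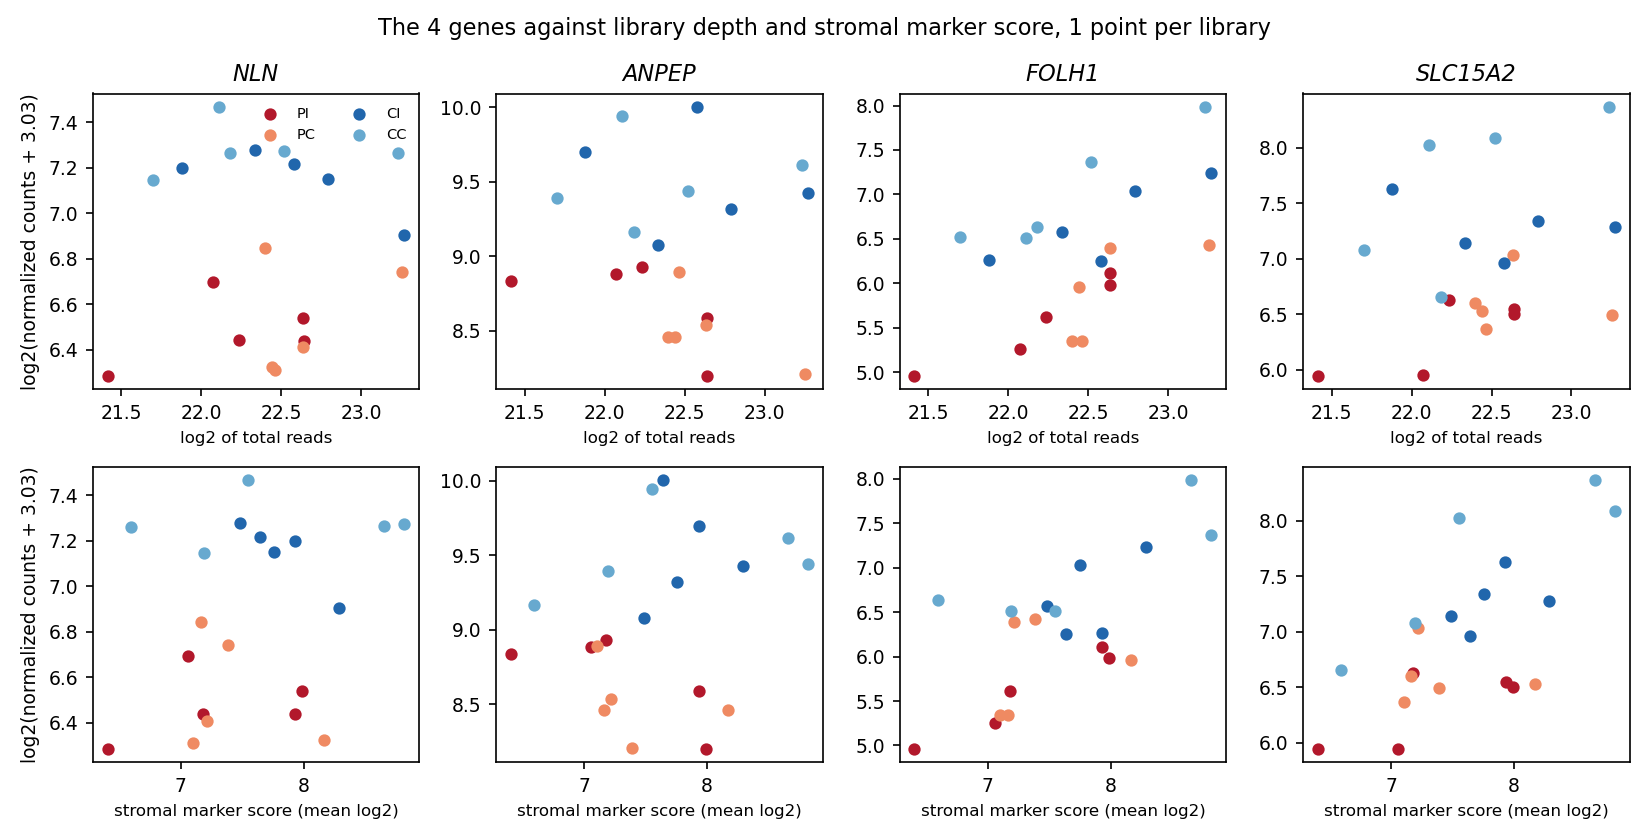
Log2 values of the 4 genes (vertical axes) against log2 total reads (upper row) and against the stromal marker score (lower row), 1 point per library coloured by group. FOLH1 is higher in deeper libraries (within-group r = 0.87), FOLH1 and SLC15A2 are higher at higher stromal scores (0.71 and 0.72), and NLN has within-group r of 0.04 and −0.08.

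**Figure D4:**
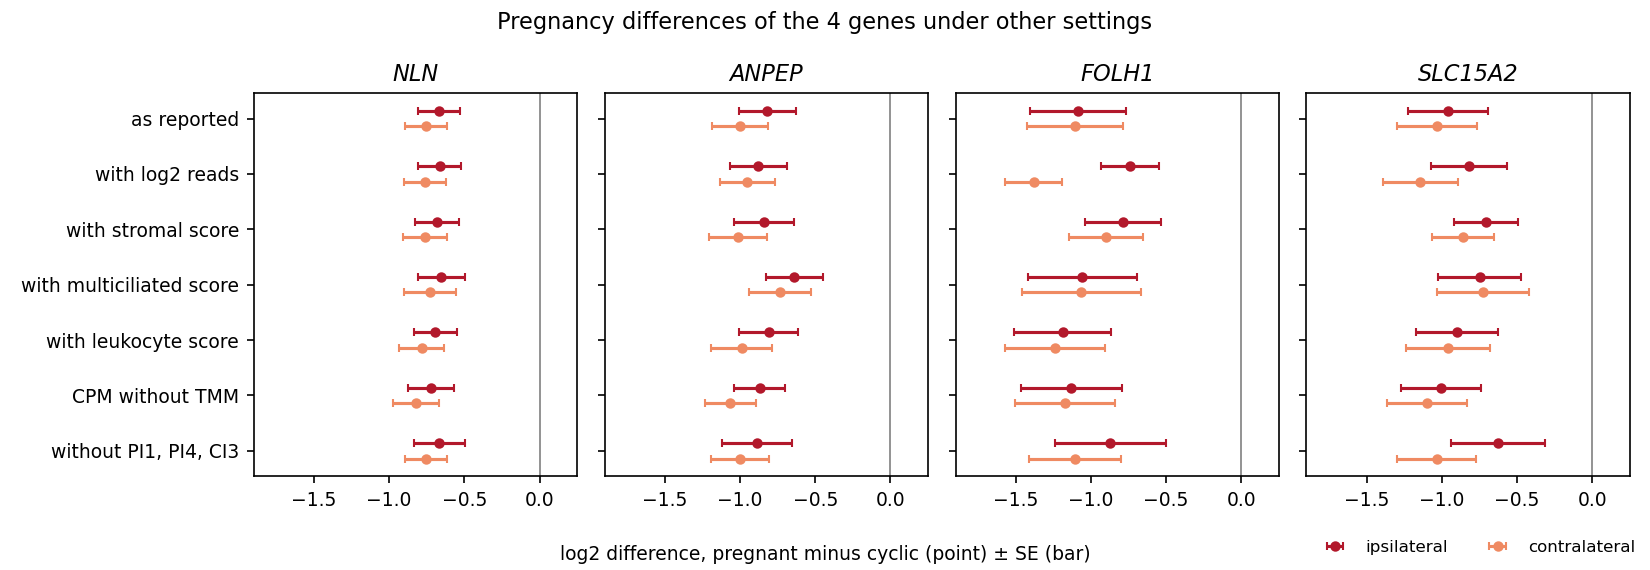
Pregnancy differences of the 4 genes on the log2 scale (horizontal axes, point ± SE) as reported, with 4 covariates, on CPM without TMM and without 3 libraries. Each value lies below 0, NLN between −0.65 and −0.82, and SLC15A2 is nearest to 0 at −0.63 without PI1, PI4 and CI3.

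The closest relatives of the 4 genes did not share their pattern throughout. In the M3 family of NLN, THOP1, a cytosolic oligopeptidase with overlapping substrates, averaged 753 ± 126 normalized counts in PI against 690 ± 73.8 in CI (log2 difference 0.12 ± 0.20) and differed by 0.26 ± 0.20 contralaterally. MIPEP, the mitochondrial member, differed by 0.18 ± 0.13 and 0.17 ± 0.13. Neither passed, nor did any feature. By limma adjusted p was 0.999 and 1.00 on the ovulation and the other side, as for each relative named here.

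Among M1 aminopeptidases, 9 genes besides ANPEP were kept, 6 of them lower and 3 higher ipsilaterally, 2 lower and 7 higher contralaterally. ENPEP, glutamyl aminopeptidase, which processes angiotensin, had means of 420 ± 80.7 (PI) and 277 ± 67.4 (CI) normalized counts. Its log2 difference was 0.61 ± 0.24, against 0.26 ± 0.24 contralaterally. TRHDE, which inactivates thyrotropin-releasing hormone, was the lowest of these 9 at −0.70 ± 0.47 and −0.89 ± 0.47. It had at most 46 reads in a library, and its pregnant and cyclic libraries overlapped on both sides. Differences were −0.18 and 0.03 for LNPEP, the oxytocin-cleaving aminopeptidase, −0.05 and 0.29 for ERAP1 and −0.05 and 0.33 for ERAP2, which trim antigenic peptides. They were −0.10 and 0.03 for NPEPPS, a cytosolic enzyme, and 0.05 and 0.05 for RNPEP, which removes basic residues.

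NAALAD2, the nearest relative of FOLH1, was low in abundance, with 0 reads in PI1. It averaged 9.50 ± 5.54 in PI, 22.8 ± 9.53 in CI, 12.9 ± 6.08 in PC and 21.6 ± 12.2 normalized counts in CC, log2 differences of −1.17 ± 0.47 and −0.61 ± 0.47. Its groups overlapped on both sides. NAALADL1 differed by −0.24 and 0.03 and NAALADL2 by −0.09 and −0.28. Because the counting method is not given in the sources used here, reads shared between such relatives could have been split or dropped.

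In the SLC15 family, the intestinal-type transporter SLC15A1 (PEPT1) averaged 34.8 ± 32.8 in PI and 26.9 ± 8.66 in CI, and 48.5 ± 23.2 in PC against 26.5 ± 11.4 normalized counts in CC, differences of −0.05 ± 0.48 and 0.75 ± 0.48. SLC15A3, a lysosomal transporter of immune cells, differed by 0.79 ± 0.41 and 0.36 ± 0.41, and SLC15A4, another lysosomal member, by −0.12 ± 0.22 and 0.06 ± 0.22. None of these 3 relatives lay below 0 on both sides, as SLC15A2 did. PDZK1, a scaffold of apical transporters, differed by 0.03 and 0.01, and SLC9A3R1, another such scaffold, by 0.32 and 0.37. CA2, a carbonic anhydrase that supplies protons, stood at −1.09 ± 0.62 and −0.92 ± 0.62, and its pregnant and cyclic libraries overlapped on both sides.

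Over all 12 lists of peptidases, peptide transporters, their peptides and receptors, and folate and glutamate handling, 95 other genes were kept. Pregnant mares were lower in 57 and higher in 38 of them ipsilaterally (median −0.07, against −0.01 over all features), and contralaterally lower in 42 and higher in 53 (median 0.03, against 0.01). By limma 0 of the 95 passed in either direction in any of the 5 comparisons. At an unadjusted p under 0.05 there were 3 ipsilaterally and 4 contralaterally, shares near those over all features (3.50% and 4.55%). edgeR and DESeq2 called 0 as well, with 3 and 3 unadjusted ipsilaterally and 6 and 7 contralaterally. The 3 were NAALAD2, lower, and ENPEP and the bradykinin receptor BDKRB2, higher. Those of the contralateral side were the mitochondrial aminopeptidase XPNPEP3, lower at −0.47 ± 0.15, and XPNPEP1, DPP4 and DPEP3, higher. BDKRB2 and DPEP3 were low genes, with at most 29 and 16 reads in a library.

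None of the other ectopeptidases of the cell surface in the lists passed, nor did any feature (limma, adjusted p = 0.999 and 1.00 for these ectopeptidases). DPP4, a dipeptidyl peptidase, averaged 905 ± 222 in PI and 670 ± 217 in CI, and 1024 ± 243 in PC and 694 ± 215 normalized counts in CC, differences of 0.46 ± 0.23 and 0.58 ± 0.23, opposite in sign to ANPEP. MME, neprilysin, differed by 0.29 and 0.51, ACE, the angiotensin-converting enzyme, by −0.30 and −0.30, and GGT1, a gamma-glutamyl transferase, by 0.27 and 0.24. FAP, a peptidase of activated fibroblasts, was the lowest of its list at −1.25 ± 0.65 and −0.71 ± 0.65. Genes at the ends of other lists were ECE2 (−0.80 and −0.50) and the carboxypeptidase CPD (−0.61 and −0.39), SLC1A3, a glutamate transporter (−0.64 and −0.38), the bradykinin receptor BDKRB2 (0.72 and 0.51) and DPEP3 (0.52 and 0.90).

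Neurotensin, a substrate of NLN, was at the counting floor. NTS, the neurotensin precursor, had at most 1 read in a library and its receptor NTSR1 at most 2, where 0 reads would allow up to 3 reads, or 1.75 to 7.03 normalized counts depending on the library. SORT1, the sorting receptor that also binds neurotensin, was abundant and differed by −0.04 ± 0.30 and 0.12 ± 0.30. AGT, the angiotensin precursor, averaged 3.71 to 7.13 normalized counts over the groups, and its receptor AGTR1 had at most 1 read. GRM3, the receptor of the FOLH1 substrate N-acetylaspartylglutamate, had at most 5 reads in any library. The folate transporter SLC46A1 differed by −0.27 and −0.22.

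**Figure D5:**
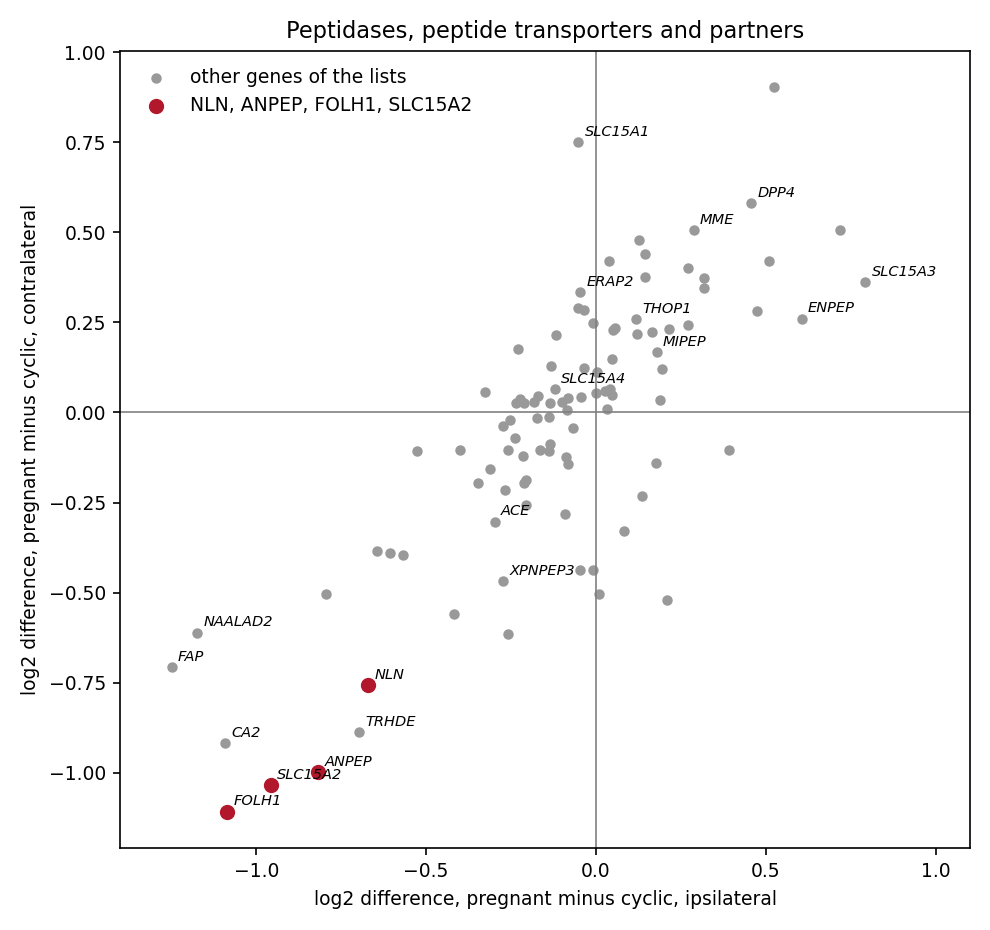
Log2 differences between pregnant and cyclic mares, ipsilateral (horizontal axis) and contralateral (vertical axis), of the 4 genes and the 95 other kept genes of the peptidase, transporter and partner lists. The 4 genes lie in the lower left together with FAP, CA2, NAALAD2 and TRHDE, while THOP1, MIPEP, DPP4, ENPEP and SLC15A3 lie in the upper right.

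Named genes next to NLN, ANPEP and SLC15A2 on the chromosome, by the RefSeq order of the TB-T2T assembly, were looked at because reads of overlapping genes can be confused. SGTB, which follows NLN and overlaps its end, had means of 7.67 ± 2.23 (PI) and 10.5 ± 7.71 (CI) normalized counts and differed by −0.20 ± 0.33 and −0.16 ± 0.33. WDR93, near ANPEP, differed by 0.08 ± 0.18 on each side, and ILDR1, beside SLC15A2, by −0.20 ± 0.18 and −0.05 ± 0.18. None of these neighbours passed, nor did any feature (limma, adjusted p = 0.999 and 1.00 for the neighbours).

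The features with a symbol most like each gene were ranked by Pearson's r of log2 values over the 20 libraries, a measure that includes the pregnancy difference. For NLN they were MMP7 (r = 0.82), PDE3B, ADAMTS18, ANPEP and PPP1R16B (0.76). For ANPEP they were TXNDC11 (r = 0.89), AGFG2, LONRF3, PACS1 and ABCA2 (0.81), for FOLH1 WDR3 (r = 0.91), ARSB, ADI1, PLEKHS1 and LTBP1 (0.87), and for SLC15A2 ADAMTS18, COL4A6, OPCML, DEAF1 and TBC1D30, all at r = 0.87. PPP1R16B differed by −1.10 and −1.11, and LONRF3 by −0.73 and −0.65 (log2, ipsilateral and contralateral). Within groups the lists were different but for DEAF1 (r = 0.85 with SLC15A2): the highest r was that of PCBP1 with NLN (0.82), ZFP36L1 with ANPEP (0.90), MAPK14 with FOLH1 (0.91) and SNX19 with SLC15A2 (0.88).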

How the data were processed

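Per the labels' protocols, total RNA of oviduct epithelium was made into stranded libraries after ribosomal RNA depletion, while another label gives polyA RNA. CASAVA 1.8 is named in the submitters' processing notes. The aligner, counting method, strand setting, build and annotation were not given in the sources used here, so no coordinates or sequences are printed. The authors deposited TMM-normalized counts, a signal per gene, as the name of the deposited table says. In each library every value above 0 was a whole multiple of the smallest, so whole reads were recovered (100% of values within 0.01 reads). Floors reflect counting error only. All 190 library pairs differed beyond sampling noise, the smallest chi-square divided by its degrees of freedom being 4.93.

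Log2(value + 3.03), a pseudocount of 0.5 CPM, was fitted with limma 3.58.1 (R 4.3.3) on 4 group means over 20 libraries, with trended and robust moderation, two-sided tests and Benjamini-Hochberg adjustment at 0.05 over 14692 features. edgeR 4.0.16 and DESeq2 1.42.0 were run on the recovered reads as alternatives. The procedure was run on simulated data with changes in PI alone and independent libraries. Shared deviations of same-numbered libraries were therefore not covered. The 4 genes and all lists were chosen with earlier results of these data known. Named genes are the 4, fixed relatives and partners, the lowest and highest kept gene of each list by mean pregnancy difference, and the 5 features most correlated with each gene over all libraries and within groups; PDE3B, PUS7, list genes with an unadjusted p under 0.05, and chromosomal neighbours were added after their values were seen. FOLR1 and SLC9A3 were not found under those symbols. One gene of the fixed relatives is not reported here. Same-numbered pregnant libraries deviated together (r = 0.53 to 0.70 in 5 of 5 pairs), which the data and not the labels show, whereas the cyclic pairs did not throughout (−0.04 to 0.68).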

Additional observations from a re-analysis of the deposited data

How the results depend on the processing

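Over 46 alternatives (among them 2 pseudocounts, 2 filters, CPM, edgeR, DESeq2, weights, 4 covariates, single libraries left out and, added after seeing the data, libraries left out together) the pregnancy differences of the 4 genes kept their sign, from −0.62 to −0.84 for NLN, −0.64 to −1.09 for ANPEP, −0.74 to −1.38 for FOLH1 and −0.63 to −1.30 for SLC15A2. Since the genes were chosen for this difference, the kept sign is a description and no support. Filters, blocks and libraries left out on the other side cannot change these estimates. None of the 4 genes passed for side or interaction under any alternative. Small side differences turned sign: FOLH1 in pregnant mares with log2 reads (0.10) and without PI1, PI4 and CI3 (0.00863), and ANPEP in cyclic mares by edgeR (0.00859), DESeq2 (0.00662) and with the multiciliated score (0.0309) or log2 reads (0.0303). The interaction of SLC15A2 was −0.0248 with the multiciliated score. With single libraries left out, NLN in pregnant mares ran from −0.10 to 0.0328 and ANPEP in cyclic mares from −0.13 to 0.10. The interactions of FOLH1 and SLC15A2 then ran from −0.22 to 0.18 and −0.11 to 0.32. Over all alternatives the interaction reached 0.64 for FOLH1, with log2 reads as a covariate, and 0.42 for SLC15A2. Contralaterally 1 feature was called on CPM without TMM, 12 by DESeq2, 6 with library weights and 1 with log2 reads. With log2 reads the median interaction of the 95 list genes was 0.0510 against −0.11; the cause was not tested. With the replicate number as a block, fixed or random, the numbers of features called were 0 in all 5 comparisons and no call changed. In the pregnancy comparisons the fixed block joined pregnant and cyclic libraries of 1 number, which the labels do not call pairs. Deviations of such libraries from their group means had r = −0.15 to 0.59 (PI and CI) and −0.40 to 0.49 (PC and CC). The fixed block left the side difference of SLC15A2 in cyclic mares at −0.37 (SE 0.22 against 0.27). Depth limits the low genes: FOLH1 had 12 reads in PI1.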
